A study of Homo sapiens with 22 samples.

Results

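Penk, Apod, Galr2 and Tmem132c are 4 mouse genes whose transcripts were raised in the host tissue of H3122 tumours on alectinib. They were chosen by name, from the 54532 genes of the mouse table, because they were higher after both 2 and 6 weeks of treatment than in therapy-naive tumours. H3122 is a human lung adenocarcinoma cell line driven by an ALK fusion, and alectinib is an ALK inhibitor. The cells were grown as xenografts in 2 immunodeficient hosts, the humanized HGF strain called hHGF-NSG and the NSG strain. Bulk RNA of the tumours was mapped to the human and to the mouse genome, and the mouse reads were taken to stand for the host stroma. The 20 mouse libraries form 6 groups: hHGF-NSG naive (n = 3), hHGF-NSG 2 weeks (n = 4), hHGF-NSG 6 weeks (n = 3), NSG naive (n = 3), NSG 2 weeks (n = 4) and NSG 6 weeks (n = 3). The human table has 22 libraries, with 4 in each NSG group. Every tumour is the same cell line, and the sources used here give neither the age of the mice nor the dose, nor whether libraries came from separate animals. The p-values therefore measure the spread between these libraries, which may be technical.

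Penk encodes preproenkephalin, the precursor that prohormone convertases cut into the enkephalin peptides, which act on opioid receptors and are best known from neurons, although mesenchymal cells can also transcribe the gene. Apod encodes apolipoprotein D, a secreted lipocalin that binds small lipophilic molecules and is made by fibroblasts, among other cells. Galr2 encodes galanin receptor 2, a G protein-coupled receptor for the neuropeptide galanin. Tmem132c encodes a single-pass membrane protein of a small family whose functions are poorly known.

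The libraries held 895826 to 5766509 mouse reads and 10688632 to 19065656 human reads on genes. The mouse share of all reads was 5.5 to 13.48% in naive tumours, 8.71 to 20.24% at 2 weeks and 16.91 to 28.95% at 6 weeks. Human HGF had 43 reads in the library labelled NSG naive replicate 1, within the 13 to 79 reads of the hHGF-NSG libraries, whereas the other NSG libraries held 0 to 6. Its label was kept. The fold and log2 changes of the 4 genes, their host comparisons and the changes of human APOD and GALR2 are also given without it. Of the calls against naive NSG tumours on other genes of the lists, of like profile or nearby, 20 of 25 mouse calls at 2 weeks and 43 of 50 at 6 weeks held without it, and so did 40 of 42 and 43 of 44 human ones (APOD and GALR2 among them). Fibroblast markers (10 genes, Col1a1 and Col3a1 among them) summed to 4184 to 14480 FPKM (fragments scaled by transcript length and library size) in treated and 4740 to 10510 FPKM in naive libraries, so fibroblast transcripts were present in every library.

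Penk (ENSMUSG00000045573, mm10 chromosome 4, 4133531 to 4138819, minus strand) stood at 2.70, 1.81 and 11.9 FPKM in the naive hHGF-NSG libraries, at 90.1, 98.1, 87.6 and 135.6 FPKM at 2 weeks and at 125.4, 76.2 and 52.8 FPKM at 6 weeks. In NSG it stood at 4.11, 4.83 and 6.53 FPKM in naive tumours, at 117.7, 105.6, 106.2 and 55.5 FPKM at 2 weeks and at 76.8, 62.3 and 122.4 FPKM at 6 weeks. The 14 treated libraries did not overlap the 6 naive ones, and 1 naive library, hHGF-NSG replicate 3, was higher than the other 5. The group means were 18.8 and 15.5 times the naive mean at 2 and 6 weeks in hHGF-NSG and 18.7 and 16.9 times in NSG. Behind these values were 211 to 989 reads per treated library and 5 to 51 per naive library.

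Apod (ENSMUSG00000022548, chromosome 16, 31296192 to 31314808, minus strand) was the most abundant of the 4 genes in every group. It stood at 36.4, 49.8 and 64.9 FPKM in naive hHGF-NSG tumours, at 543, 674, 894 and 613 FPKM at 2 weeks and at 999, 641 and 626 FPKM at 6 weeks. In NSG it stood at 49.3, 102.9 and 21.6 FPKM in naive tumours, at 490, 590, 498 and 362 FPKM at 2 weeks and at 724, 568 and 966 FPKM at 6 weeks. The lowest treated library was above the highest naive one by a wide margin. The group means were 13.5 and 15 times the naive mean in hHGF-NSG and 8.37 and 13 times in NSG, at 2 and 6 weeks in that order. By mean FPKM, Apod ranked 43 of 12427 protein-coding genes in treated and 781 in naive stroma.

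Galr2 (ENSMUSG00000020793, chromosome 11, 116280939 to 116283938, plus strand) was at or near the limit of detection in naive stroma. The naive hHGF-NSG libraries held 0, 0 and 4 reads, and the naive NSG libraries 1, 1 and 5 reads. At 2 weeks the gene stood at 11.3, 12.2, 8.31 and 11 FPKM in hHGF-NSG and at 14.8, 13, 15.6 and 9.10 FPKM in NSG. At 6 weeks it stood at 18.3, 7.53 and 8.29 FPKM in hHGF-NSG and at 14.5, 10.1 and 12.9 FPKM in NSG. Treated libraries held 45 to 217 reads and none overlapped the naive ones, which reached 1.67 FPKM. A count of 0 allows up to 3 reads, which would be 1.08 and 0.722 FPKM in the libraries hHGF-NSG naive replicates 1 and 2, for counting error only.

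Tmem132c (ENSMUSG00000034324, chromosome 5, 127241808 to 127565793, plus strand) behaved much as Galr2 did in naive stroma, with 0, 1 and 7 reads in the hHGF-NSG libraries and 2, 2 and 4 reads in the NSG libraries. At 2 weeks it stood at 11.4, 7.19, 6.03 and 7.70 FPKM in hHGF-NSG and at 9.39, 12.1, 9.93 and 7.20 FPKM in NSG. At 6 weeks it stood at 4.92, 2.95 and 6.14 FPKM in hHGF-NSG and at 6.48, 5.06 and 8.38 FPKM in NSG. The highest naive value was 0.561 FPKM, below every treated library. It was the only one of the 4 genes whose mean was lower at 6 than at 2 weeks in both hosts by more than 1 SD of the 6-week libraries.

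**Figure D1:**
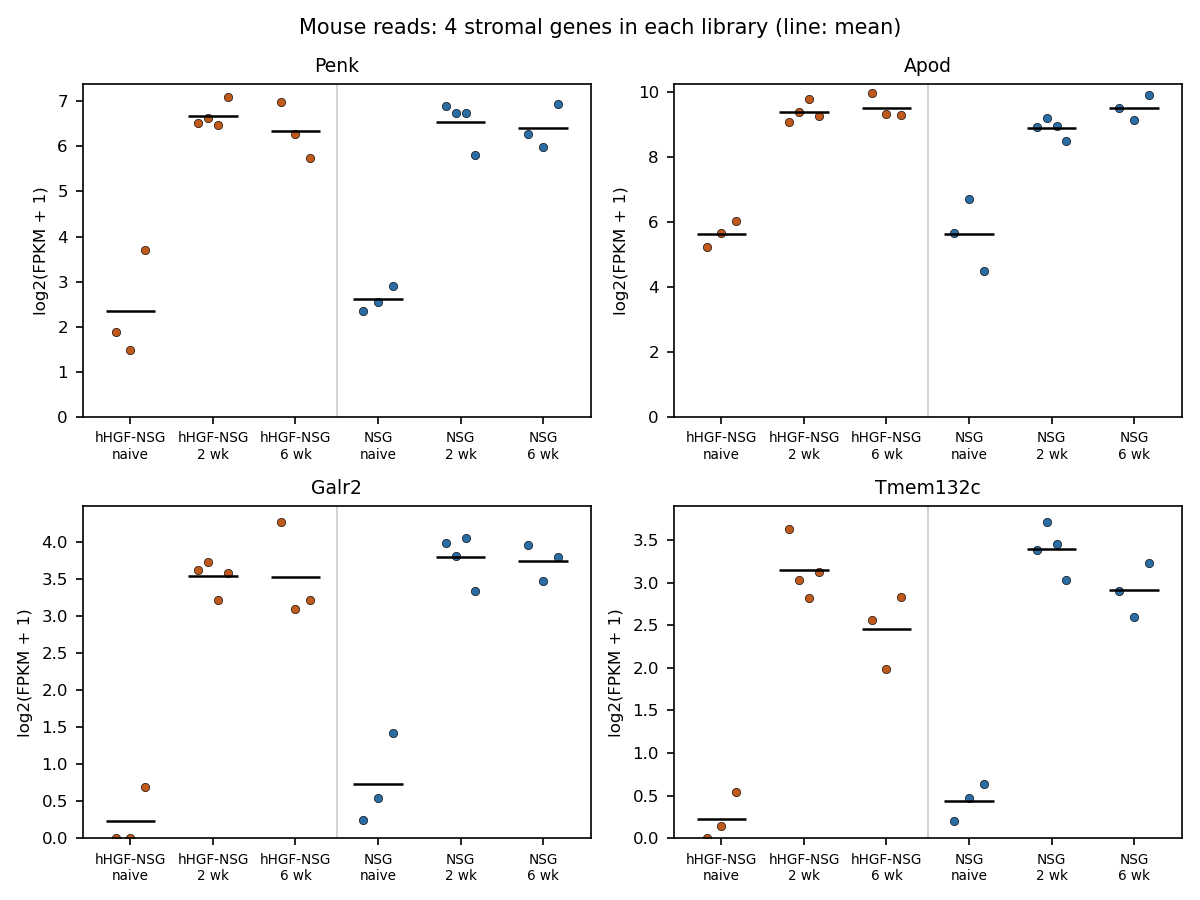
Level of Penk, Apod, Galr2 and Tmem132c in each mouse library, as log2(FPKM + 1), by host and time. Points are libraries and lines are group means; in all panels the treated libraries lie above the naive ones, and for each gene every treated group overlaps the treated group next to it in mean.

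These contrasts chose the genes, so the changes, and the lack of overlap between treated and naive libraries, are a description with no test. The choice made such a separation likely, and its share over all genes is not given here. On the log2(FPKM + 1) scale, which understates the change of low genes, Penk was higher by 4.32 and 3.98 at 2 and 6 weeks in hHGF-NSG and by 3.94 and 3.80 in NSG. The changes of Apod were 3.74 and 3.88 in hHGF-NSG and 3.28 and 3.91 in NSG, those of Galr2 3.31 and 3.29 in hHGF-NSG and 3.06 and 3.00 in NSG, and those of Tmem132c 2.92 and 2.23 in hHGF-NSG and 2.95 and 2.47 in NSG. Of the 14287 mouse genes tested, 3.49 and 9.67% were called higher at 2 and 6 weeks in hHGF-NSG and 3.32 and 8.81% in NSG, while 3.56 and 8.12% were called lower in hHGF-NSG and 4.48 and 8.59% in NSG. Ranked by the smallest of the 4 changes among 12427 protein-coding genes, Penk was number 1, Apod 2, Galr2 3 and Tmem132c 10. Mouse libraries held 895826 to 2471749 reads in naive tumours, 1639063 to 3421604 at 2 weeks and 2594895 to 5766509 at 6 weeks. With every library thinned to 895826 reads, the changes were 2.39 to 4.46 in hHGF-NSG and 2.43 to 4.08 in NSG. When NSG naive replicate 1 was left out, the folds of means in NSG at 2 and 6 weeks became 16.9 and 15.3 for Penk and 7.79 and 12.1 for Apod. The log2 changes at 2 weeks became 3.82 for Penk, 3.30 for Apod, 2.81 for Galr2 and 2.84 for Tmem132c, and at 6 weeks 3.68, 3.92, 2.76 and 2.35. Without hHGF-NSG naive replicate 3, the highest naive library for Penk, its changes in hHGF-NSG became 4.99 and 4.64. With a pseudocount of 0.1 the changes of Galr2 were 4.25 to 5.79 and those of Tmem132c 3.93 to 5.15. A larger number of cells that transcribe a gene and more transcript per cell cannot be told apart in bulk tissue.

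The order of the group means, highest first, was hHGF-NSG 2 weeks, NSG 2 weeks, NSG 6 weeks and hHGF-NSG 6 weeks for Penk, with means of 102.8 ± 22.3, 96.3 ± 27.7, 87.2 ± 31.4 and 84.8 ± 37.1 FPKM (SD). Apod ran from hHGF-NSG 6 weeks (755 ± 211 FPKM) and NSG 6 weeks (753 ± 200) to hHGF-NSG 2 weeks (681 ± 151) and NSG 2 weeks (485 ± 94). For Galr2 the means were 13.1 ± 2.90 FPKM in NSG 2 weeks, 12.5 ± 2.26 in NSG 6 weeks, 11.4 ± 6.02 in hHGF-NSG 6 weeks and 10.7 ± 1.69 in hHGF-NSG 2 weeks. Tmem132c had 9.66 ± 2.02 FPKM in NSG 2 weeks, 8.08 ± 2.32 in hHGF-NSG 2 weeks, 6.64 ± 1.66 in NSG 6 weeks and 4.67 ± 1.61 in hHGF-NSG 6 weeks. Each treated group overlapped the next one in the order for all 4 genes. The naive means closed each order, with 5.48 ± 5.60 and 5.16 ± 1.24 FPKM for Penk, 50.4 ± 14.3 and 58.0 ± 41.3 for Apod, 0.207 ± 0.359 and 0.771 ± 0.791 for Galr2 and 0.186 ± 0.240 and 0.367 ± 0.205 for Tmem132c, hHGF-NSG before NSG in each pair, and the hosts overlapped there too.

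The difference between hosts compares the hHGF-NSG with the NSG strain, and cannot tell HGF apart from any other difference between them. The choice did not use this difference directly. It did use the rise over naive tumours in both hosts. A gene raised in only NSG or only hHGF-NSG was therefore unlikely to be chosen. None of the 4 genes was called at 2 or at 6 weeks, nor Penk or Apod in naive tumours, with limma, at a Benjamini-Hochberg adjusted p of 0.05 over all genes. The share of all genes called was 0.042% for naive tumours, 0.371% for tumours at 2 weeks and 0.252% for those at 6 weeks, and voom called none of them either. At an unadjusted p under 0.05 none passed, against 10.1, 7.85 and 4.95% of all genes in naive tumours, at 2 and at 6 weeks. At 2 weeks the difference, hHGF-NSG minus NSG, was 0.13 for Penk (SE 0.38, 95% interval -0.67 to 0.93, limma adjusted p = 0.971) and 0.49 for Apod (SE 0.34, -0.22 to 1.19, limma adjusted p = 0.791). It was -0.26 for Galr2 (SE 0.28, -0.84 to 0.33, limma adjusted p = 0.882) and -0.24 for Tmem132c (SE 0.22, -0.71 to 0.23, limma adjusted p = 0.849). These intervals leave room for differences of about 1 log2 unit in Penk and Apod, so the hosts were not shown to be alike.

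In naive tumours the host difference was -0.25 for Penk (95% interval -1.17 to 0.68) and 0.03 for Apod (-0.79 to 0.84). Galr2 and Tmem132c were in the fit through their treated libraries, and with 0 to 5 and 0 to 7 reads in naive libraries a host difference there was not detectable at this depth; their values of -0.50 and -0.21 are a description. With NSG naive replicate 1 left out the naive differences were -0.37 for Penk, 0.04 for Apod, -0.75 for Galr2 and -0.33 for Tmem132c. At 6 weeks the differences were -0.07 for Penk (-0.99 to 0.85), 0.00397 for Apod (-0.81 to 0.82), -0.21 for Galr2 (-0.89 to 0.46) and -0.45 for Tmem132c (-0.99 to 0.09). The response to treatment was not shown to differ between hosts for any of the 4 in a limma F-test over both times (adjusted p = 0.988 to 0.997, and 0.925 to 0.982 without NSG naive replicate 1, with 0.021% of all genes called). For Galr2 and Tmem132c that test rests on the same few naive reads. For all 4 genes it is not independent of the choice, which used the responses in both hosts. The absence of a call is not read as an equal response.

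The genes were chosen as raised at both times, so one that had returned to its naive level by 6 weeks could not be among them. The differences between 2 and 6 weeks are therefore not independent of the choice, and the absence of a call among them is not read as stability. None was called in hHGF-NSG, where 1.08% of all genes were, or in NSG, where 3.89% were. The difference, 6 minus 2 weeks, was -0.34 and -0.14 for Penk, 0.14 and 0.62 for Apod and -0.01 and -0.06 for Galr2, in hHGF-NSG and NSG in that order, with 95% intervals that all held 0. Tmem132c came nearest, at -0.69 in hHGF-NSG (SE 0.24, 95% interval -1.20 to -0.18, limma adjusted p = 0.173) and -0.48 in NSG (SE 0.24, -0.99 to 0.02, limma adjusted p = 0.324). At an unadjusted p under 0.05 it was the only one of the 4 in hHGF-NSG, where 13.6% of all genes passed, and none did in NSG, where 17% did. Fitted to recovered whole reads with limma voom, its fall in hHGF-NSG was -0.89 (adjusted p = 0.0422) and passed, whereas the NSG difference of -0.53 did not (adjusted p = 0.232). Over all alternatives the adjusted p of the hHGF-NSG difference was 0.0422 to 0.689.

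**Figure D2:**
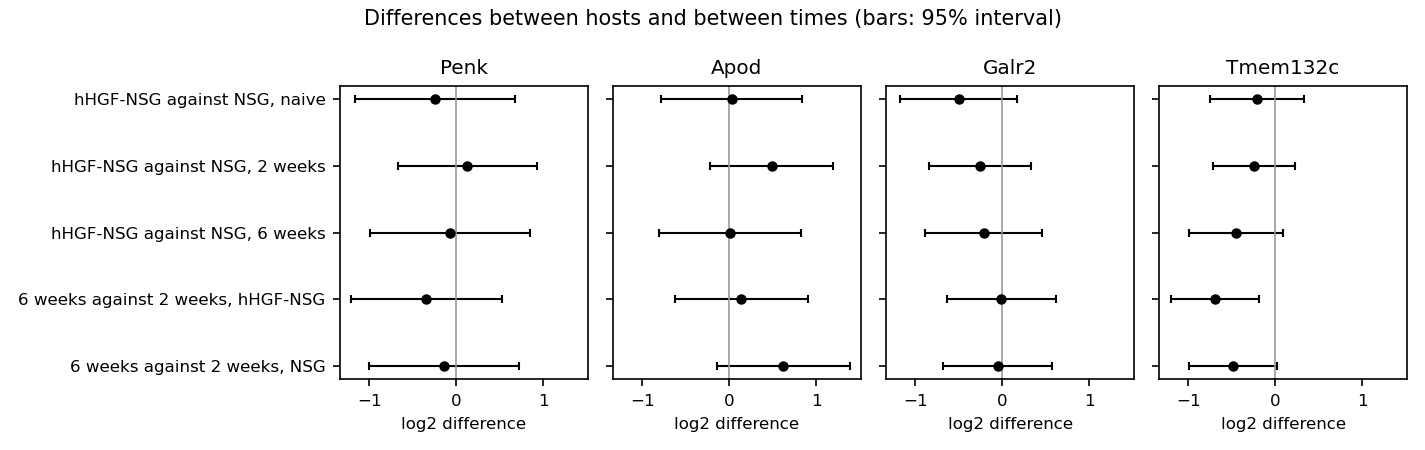
Differences in log2(FPKM + 1) between hosts in each state and between 6 and 2 weeks in each host, with 95% intervals from the limma fit. All intervals hold 0 except that of Tmem132c at 6 against 2 weeks in hHGF-NSG (-1.20 to -0.18), whose adjusted p was 0.173.

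Other genes of the opioid system were set beside Penk. Of 17 listed genes of opioid peptides, receptors and peptide processing, 8 were measured well enough to test. At 2 weeks none was called higher in either host, and 1, Ctsl, was lower in NSG (-0.52, limma adjusted p = 0.038, ended in 6 of the fits without 1 library, NSG naive replicate 1 among them, at 0.0807 to 0.0929). Of the other precursor genes, Pdyn and Pnoc were listed at 0 in all 20 libraries, and Pomc reached 2.296 FPKM at most and was not called. The receptor genes Oprm1 and Oprk1 were at 0 in all 20 libraries. Oprd1 and Oprl1 were at 0 in 18 and 17 libraries and did not exceed 0.275 and 1.037 FPKM. The convertase genes Pcsk1 and Pcsk2 did not exceed 0.247 and 0.0931 FPKM. Cpe, the carboxypeptidase that trims neuropeptides, was measured at 32.8 and 33.1 FPKM at 6 weeks in hHGF-NSG and NSG, against 22.1 and 29.96 FPKM in naive tumours, and was not called. At 6 weeks 1 gene was higher in hHGF-NSG and 2 in NSG, against 9.67 and 8.81% of all genes. At 2 weeks in NSG 4.48% of all genes were called lower. Mme, the membrane peptidase neprilysin that degrades enkephalins, rose by 1.17 in hHGF-NSG (limma adjusted p = 0.0303) and 1.26 in NSG (adjusted p = 0.0208), and Ace, angiotensin-converting enzyme, by 0.88 in NSG (adjusted p = 0.0261). The list's median change was 0.21 and 0.24 in hHGF-NSG and -0.06 and 0.04 in NSG at 2 and 6 weeks, against 0.03 to 0.06 over all genes. The Mme call ended in hHGF-NSG without naive replicate 1 or 3 or 6 weeks replicate 2 or 3, and in NSG without naive replicate 3 or 4 or 6 weeks replicate 1 or 3. The Ace call ended without the library labelled NSG naive replicate 1 or NSG 6 weeks replicate 1 or 2. Over these the change and the adjusted p were 0.98 to 1.13 and 0.0703 to 0.12 for Mme in hHGF-NSG, 1.18 to 1.22 and 0.0595 to 0.0689 for Mme in NSG, and 0.61 to 0.83 and 0.078 to 0.12 for Ace.

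Galanin, the ligand of Galr2, was scarce in the stroma. Mouse Gal was at 0 in 15 of 20 libraries and its changes of -0.86 in hHGF-NSG at both times and -0.24 and -0.30 in NSG were not called. The related receptors Galr1 and Galr3 did not exceed 0.0613 and 1.498 FPKM and were not tested. In the human table GAL stood at 4.44 ± 1.81 FPKM in naive, 0.714 ± 0.309 at 2 weeks and 0.247 ± 0.276 at 6 weeks in hHGF-NSG tumours, and at 4.55 ± 1.28, 0.656 ± 0.326 and 0.410 ± 0.256 in NSG tumours (SD, n = 3, 4, 3 and 4, 4, 4). The human ligand gene therefore fell, by 1.64 and 2.10 at 2 and 6 weeks in hHGF-NSG (limma adjusted p = 6.56e-06 and 7.29e-07) and by 1.74 and 1.96 in NSG (adjusted p = 1.05e-06 and 1.91e-07).

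Among 14 listed lipocalin, apolipoprotein and related genes other than Apod, 10 were tested, and 3 were higher at 2 and 6 at 6 weeks in hHGF-NSG, against 2 and 5 in NSG. Lower were 0 and 1 in hHGF-NSG and 1 and 1 in NSG, in each case Lcn2. Over all mouse genes 3.49 and 9.67% were called higher in hHGF-NSG and 3.32 and 8.81% in NSG. Called lower were 3.56 and 8.12% in hHGF-NSG and 4.48 and 8.59% in NSG. Apoe was called higher in all 4 contrasts. It rose by 1.04 and 1.22 in hHGF-NSG (limma adjusted p = 0.0329 and 0.00848). In NSG it rose by 1.01 at both times (adjusted p = 0.0341 and 0.0268). All these calls ended with no filter on low values (adjusted p = 0.232 to 0.379). Fits without 1 library ended the 2-week hHGF-NSG call (4 fits) and both NSG calls (3 and 4 fits, NSG naive replicate 1 among the libraries). Lepr, the leptin receptor, rose by 1.56 and 1.39 in hHGF-NSG and by 2.10 and 1.92 in NSG (limma adjusted p = 0.00188, 0.00227, 8.93e-05 and 0.000181). It stood at 11.9 ± 1.89 FPKM at 2 weeks and 10.5 ± 1.61 at 6 weeks, against 3.43 ± 1.07 in naive hHGF-NSG stroma, and at 16.2 ± 3.93 and 14 ± 3.28, against 3.20 ± 2.01 in naive NSG stroma. Rbp4, the retinol carrier, rose at 6 weeks by 2.82 in hHGF-NSG and 2.73 in NSG (limma adjusted p = 0.000383 and 0.000457), and Orm1, an acute-phase lipocalin, by 3.08 and 3.595 (adjusted p = 0.00404 and 0.00127). Apoc1, an apolipoprotein of macrophages and liver, rose at 6 weeks by 3.47 in hHGF-NSG and 2.64 in NSG (limma adjusted p = 0.000476 and 0.00363). Lcn2, a lipocalin of neutrophils and inflamed epithelia, fell at 6 weeks, by a log2 change of -2.37 in hHGF-NSG and -3.25 in NSG (limma adjusted p = 0.00851 and 0.000864), and at 2 weeks in NSG (-2.45, adjusted p = 0.00983). Its hHGF-NSG call ended without naive replicate 2 (-1.72, adjusted p = 0.0564). The list's median change was 0.76 and 1.31 in hHGF-NSG and 1.07 and 1.34 in NSG at 2 and 6 weeks. Rbp4 and Orm1 are also transcribed by adipocytes, whose markers rose at 6 weeks, as given below; the part of adipocytes in these changes was not tested.

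The relatives of Tmem132c and other neuropeptide genes were examined next. Tmem132a and Tmem132e were tested and not called in any of the 4 contrasts, with changes of -0.64 to 0.65. None of 4 tested neuropeptide genes of 16 listed was called, and of 6 tested neuropeptide receptors of 17 listed 1 was higher at 2 and 1 at 6 weeks in hHGF-NSG, with 0 and 1 in NSG. With 6 genes tested, 1 call is 1 in 6, against 3.49 and 9.67% of all genes called higher in hHGF-NSG and 8.81% at 6 weeks in NSG. The higher gene, Vipr1, a receptor of vasoactive intestinal peptide, rose by 1.12 and 0.93 in hHGF-NSG and by 1.04 at 6 weeks in NSG (limma adjusted p = 0.00586, 0.0112 and 0.00545), and its NSG change of 0.63 at 2 weeks was not called (adjusted p = 0.0969). In libraries thinned to the smallest one the hHGF-NSG calls ended (adjusted p = 0.0654 and 0.152). The only receptor called lower was Calcrl, part of the receptors for adrenomedullin and CGRP, at 2 weeks in hHGF-NSG (-0.86, limma adjusted p = 0.04), a call that ended in 5 of the fits without 1 library (adjusted p = 0.0573 to 0.117).

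Immediate early transcription factors, some of which are known to act on the Penk promoter, were lower or not called. Of 16 AP-1, CREB and immediate early genes, 0 were higher and 2 and 3 were lower at 2 and 6 weeks in hHGF-NSG, and 0 were higher and 5 and 4 lower in NSG. The shares of all mouse genes called lower were 3.56 and 8.12% in hHGF-NSG and 4.48 and 8.59% in NSG. Many of the calls ended in fits without 1 library. In hHGF-NSG these were Fos and Fosl2 at 2 weeks (4 and 5 fits) and Fosl1 and Nr4a2 at 6 weeks (6 and 5 fits). In NSG they were Fosl1, Fosl2 and Nr4a1 at 2 weeks (5, 4 and 1 fits). At 6 weeks in NSG they were Fosl1, Fosl2 and Junb (13, 4 and 3 fits). The NSG calls of Fosl1 and Fosl2 ended without NSG naive replicate 1 at both times. Fos, which pairs with Jun proteins, fell by 2.70 and 2.63 in NSG (limma adjusted p = 0.0005 and 0.000462) and Egr1, a zinc finger factor, by 2.52 at 2 weeks in NSG (adjusted p = 0.00191). Nr4a1, an orphan nuclear receptor, was lower by 2.79 at 2 weeks in NSG (adjusted p = 0.0126, and 0.0501 at a change of -2.64 without NSG naive replicate 4). In hHGF-NSG Fos was lower by 1.53 at 2 weeks (adjusted p = 0.0306, ended without any of naive replicates 1 and 2 or 2 weeks replicates 2 and 4, at adjusted p = 0.0629 to 0.123) and its change of -0.51 at 6 weeks was not called. The median over the list was -0.32 and -0.30 in hHGF-NSG and -0.65 and -0.48 in NSG.

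Of 12 targets of the glucocorticoid receptor and FOXO factors, 1 and 7 were higher at 2 and 6 weeks in hHGF-NSG and 1 and 4 in NSG. The shares of all mouse genes called higher were 3.49 and 9.67% in hHGF-NSG and 3.32 and 8.81% in NSG. The higher call in hHGF-NSG at 2 weeks, Klf15, ended in 4 of the fits without 1 library (limma adjusted p = 0.0588 to 0.118). At 6 weeks there the calls of Irs2, Zbtb16 and Klf9 ended in 5, 3 and 2 such fits (adjusted p = 0.0506 to 0.151). Sgk1, a kinase induced by glucocorticoids, was lower at 2 weeks in both hosts, by 1.10 in NSG (limma adjusted p = 0.00021) and by 0.54 in hHGF-NSG (adjusted p = 0.0359, ended in 6 of the fits without 1 library at 0.0741 to 0.0974). Klf15, a glucocorticoid-induced zinc finger factor, rose at 6 weeks by 3.35 in hHGF-NSG and 1.96 in NSG (limma adjusted p = 0.000249 and 0.0114, the NSG call ending with a pseudocount of 0.1 at adjusted p = 0.0688). Txnip, an inhibitor of thioredoxin, rose at 6 weeks by 1.35 in hHGF-NSG and 1.31 in NSG (limma adjusted p = 0.000562 and 0.000634), Tsc22d3, a glucocorticoid-induced leucine zipper protein, by 1.14 and 1.09 (adjusted p = 0.00178 and 0.00259) and Pik3ip1, an inhibitor of PI3 kinase, by 1.47 and 2.14 (adjusted p = 0.00434 and 0.000236). At 2 weeks the changes of Txnip and Tsc22d3 were 0.44 and 0.55 in hHGF-NSG and 0.46 and 0.07 in NSG, and none was called. Of 10 growth arrest genes, 2 were higher at each time in hHGF-NSG, with 1 and 2 lower, and 1 and 2 were higher and 1 and 1 lower in NSG. With 10 genes, 1 call at 6 weeks is near the share of all genes, 8.12 to 9.67% in either direction. Such a count is not read as a result about the list. Cdkn1c, a CDK inhibitor, rose at 6 weeks by 1.91 in hHGF-NSG and 1.61 in NSG (limma adjusted p = 0.000398 and 0.00135), and Cdkn1a, another, fell by 1.05 and 1.13 (adjusted p = 0.000329 and 0.000161).

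Markers of the cell types a tumour stroma can hold were examined beside the 4 genes. Their counts stand against the shares of all mouse genes called in the 2 hosts. At 2 weeks these were 3.32 to 3.49% higher and 3.56 to 4.48% lower. At 6 weeks they were 8.81 to 9.67% higher and 8.12 to 8.59% lower. Of 10 fibroblast markers 2 were higher at 2 and 1 at 6 weeks in hHGF-NSG, against 2 and 3 in NSG, and none was lower. Of 8 adventitial fibroblast markers 3 were lower at each time in hHGF-NSG and 2 at each time in NSG, and 1 was higher, at 6 weeks in NSG. Sema3c, a secreted semaphorin, fell by 1.41 and 1.83 in hHGF-NSG and by 1.13 and 1.27 in NSG (limma adjusted p = 0.00135, 0.000109, 0.00516 and 0.00155). Col15a1, a basement membrane collagen, fell by 0.89 and 1.04 in hHGF-NSG and by 0.86 and 1.5 in NSG (limma adjusted p = 0.0112, 0.00212, 0.0112 and 0.000117). Anxa3, an annexin, fell by 0.62 and 1.01 in hHGF-NSG (adjusted p = 0.0227 and 0.000493), the first call ending without naive replicate 1 or 2 weeks replicate 3 (adjusted p = 0.0975 and 0.0641). Among the fibroblast markers, Thy1, a fibroblast surface protein, rose at 2 weeks by 1.14 in hHGF-NSG and 1.25 in NSG (limma adjusted p = 0.002 and 0.000707) and Dcn, decorin, rose at 6 weeks by 1.28 and 2.00 (adjusted p = 0.00704 and 0.000244). The collagen gene Col1a1 was not called in any of the 4 contrasts. The median change of the fibroblast list was 0.02 and -0.22 in hHGF-NSG and 0.54 and 0.32 in NSG. In hHGF-NSG the summed fibroblast markers at 6 weeks, 4184 to 5025 FPKM, lay below the naive 6035 to 8192 FPKM. In NSG the 6-week sums, 4787 to 6992 FPKM, lay within the naive range of 4740 to 10510 FPKM. At 2 weeks the fibroblast sums overlapped the naive ones in both hosts. All 9 adipocyte markers rose at 6 weeks in both hosts, by a median of 2.87 in hHGF-NSG and 2.85 in NSG. At 2 weeks 1 of 9 rose in hHGF-NSG and 0 of 9 in NSG. Summed adipocyte markers were 1789 to 7201 FPKM at 2 weeks and 7260 to 13780 FPKM at 6 weeks, against 764.6 to 2423 FPKM in naive hHGF-NSG libraries, and 1157 to 2216 and 5201 to 6439 FPKM, against 499.4 to 1911 FPKM in naive NSG libraries. At 2 weeks the adipocyte sums overlapped those of naive libraries in both hosts.

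Of 5 myofibroblast and smooth muscle markers 4 fell at 6 weeks in each host, and their sum was 87 to 196.5 FPKM, against 723.4 to 1126 FPKM in naive hHGF-NSG libraries, and 124.6 to 154.7 FPKM, against 577 to 993.3 FPKM in naive NSG libraries. Schwann cell and neuron markers were low. Of 6 tested Schwann cell markers none was called, with sums of 6.74 to 60.5 FPKM in treated and 12.6 to 34.9 FPKM in naive libraries. Of 2 tested neuron markers none was higher, and Tubb3, a neuronal tubulin, fell at 6 weeks by 1.56 in hHGF-NSG and 1.98 in NSG (limma adjusted p = 0.00538 and 0.000905). The sum of all 7 was 8.80 to 42.8 FPKM in treated and 25.2 to 60.6 FPKM in naive libraries. The neuron marker Snap25 was at 0 in 16 of 20 libraries. Endothelial, pericyte and neutrophil markers were called lower or not called in each of the 4 contrasts. The part of any cell type in the 4 genes was not tested.

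**Figure D3:**
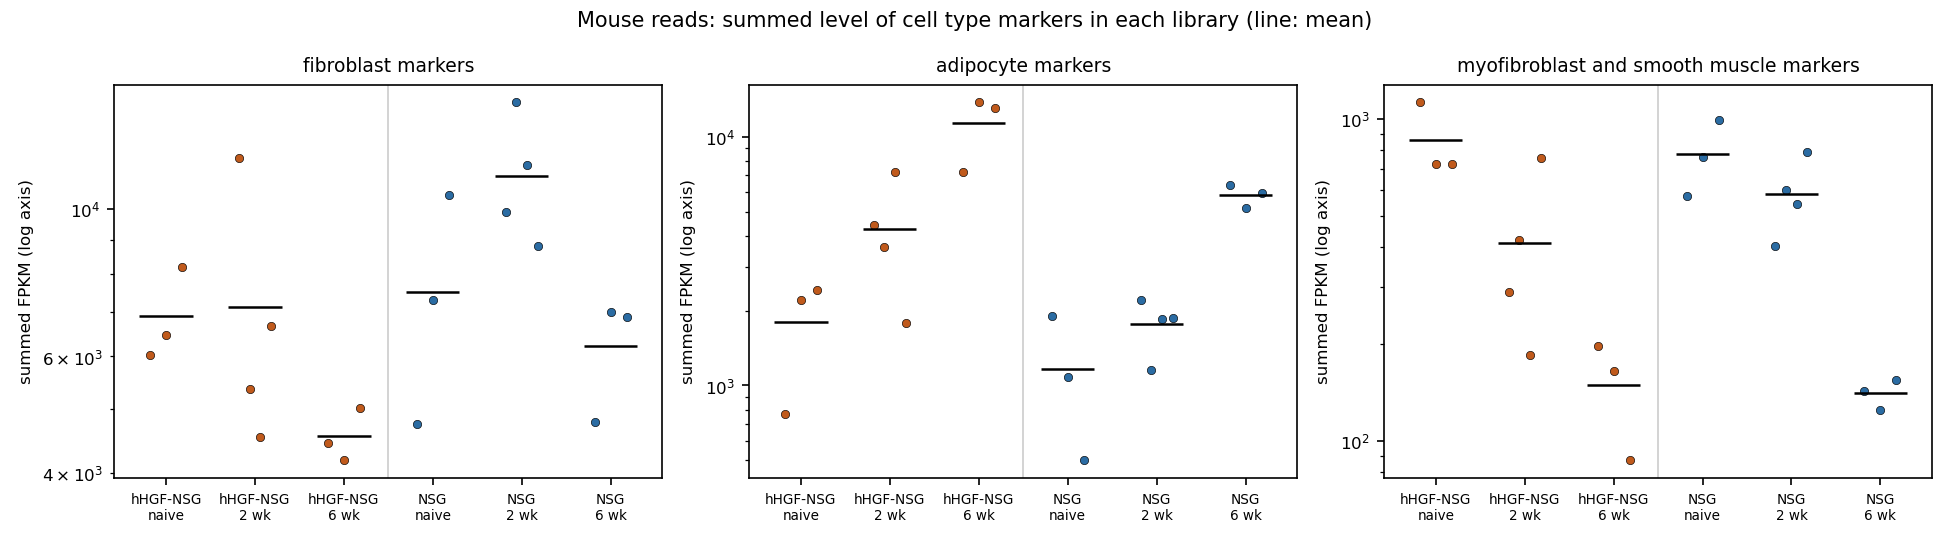
Summed FPKM (log axis) of 10 fibroblast, 9 adipocyte and 5 myofibroblast and smooth muscle markers in each mouse library, by host and time. Points are libraries and lines are means. Adipocyte sums at 2 weeks overlap the naive ones in hHGF-NSG (1789 to 7201 against 764.6 to 2423) and in NSG (1157 to 2216 against 499.4 to 1911). Myofibroblast sums at 6 weeks lie below all naive ones.

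The genes whose profiles were most like those of the 4 were found by the root mean square difference of centred log2(FPKM + 1) over 20 libraries, as a description. Galr2 and Tmem132c were each other's nearest gene, at 0.451. Penk was nearest to Galr2 (0.552), Apod (0.65) and Tmem132c (0.793), so that its 3 nearest genes were the other members, followed by Omd (0.858) and Dbp (0.905). Apod was nearest to Omd (0.604), Penk (0.65), Galr2 (0.698), Fbln7 (0.738) and Dbp (0.74). Omd encodes osteomodulin, a matrix proteoglycan, and its means were 0.144, 9.88 and 11.9 FPKM in hHGF-NSG and 0.802, 8.42 and 20 FPKM in NSG, naive, 2 weeks and 6 weeks in that order. Dbp, a clock-controlled transcription factor, had 2.70, 21.8 and 79.6 FPKM in hHGF-NSG and 2.42, 36.8 and 66.2 FPKM in NSG. It went on gaining to 6 weeks, unlike Penk.

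Next to Galr2 came Omd (0.659) and Tnfrsf19 (0.689), and next to Tmem132c came Gli1 (0.503), Tnfrsf19 (0.552), Rerg (0.57) and Itgbl1 (0.583). Gli1, a transcription factor and target of Hedgehog signalling, had means of 0.538, 13.3 and 4.72 FPKM in hHGF-NSG and 0.185, 14.1 and 5.31 FPKM in NSG at naive, 2 weeks and 6 weeks. Like Tmem132c it was highest at 2 weeks. Tnfrsf19, a receptor of the tumour necrosis factor family, had 3.54, 26.9 and 15.7 FPKM in hHGF-NSG and 3.21, 19.7 and 15.1 FPKM in NSG. The libraries share the naive and treated groups that chose the members, which by itself places genes of like change near each other.

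The neighbours of the 4 genes on the chromosome were examined as well. Of the 2 nearest protein-coding genes on each side, 16 in all, 10 were tested. At 2 weeks none was called higher in either host, and at 6 weeks 1 of 10 was in hHGF-NSG and 2 of 10 in NSG, against 9.67 and 8.81% of all genes. Bdh1, a ketone body dehydrogenase 107.5 kb from Apod, was lower by 1.11 and 1.33 at 2 and 6 weeks in hHGF-NSG (limma adjusted p = 0.0351 and 0.00825, the first ended in 5 of the fits without 1 library at 0.056 to 0.158), and Srp68, a signal recognition particle gene beside Galr2, by 0.54 at 6 weeks in NSG (adjusted p = 0.0297, ended in 4 of the fits without 1 library at 0.0535 to 0.164). Aacs, a ketone body enzyme 1724 kb from Tmem132c, rose at 6 weeks by 1.97 in hHGF-NSG and 1.99 in NSG (limma adjusted p = 0.00439 and 0.00415), and not at 2 weeks (0.73 and 0.10, adjusted p = 0.308 and 0.918). The nearest gene to Galr2, Exoc7 at 4.06 kb, changed by 0.47 and 0.35 in hHGF-NSG and -0.07 and -0.15 in NSG and was not called. Genes that overlap Penk and Tmem132c in the annotation (A830012C17Rik, Tmem132cos and 9430087B13Rik) held 0 to 2 reads in every library. The sources used here do not say whether counting used the strand.

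**Figure D4:**
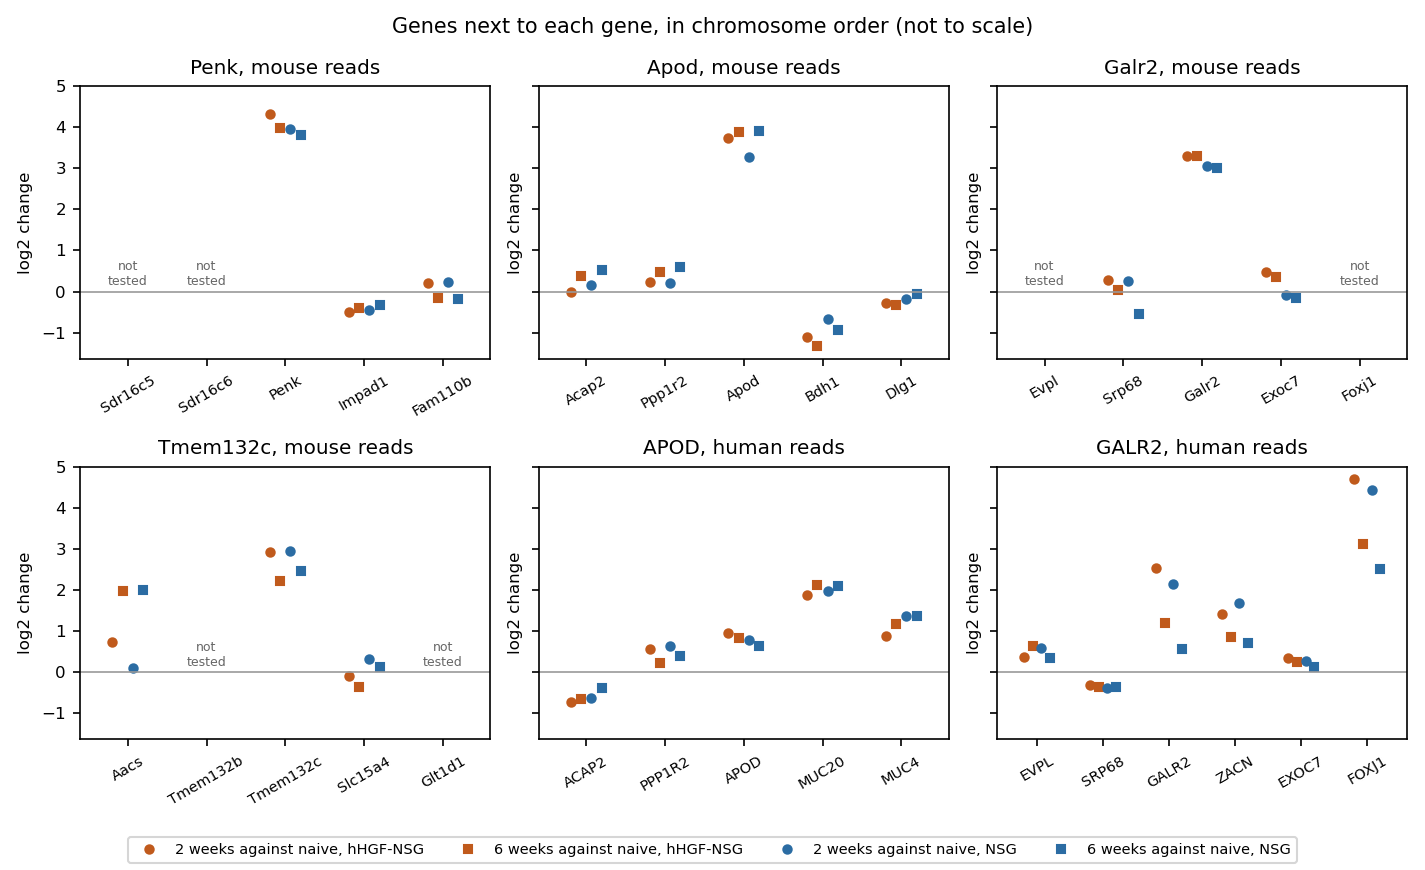
Log2 change at 2 and 6 weeks against naive of each gene and its neighbours, in chromosome order and not to scale, for the 4 mouse genes and for human APOD and GALR2. Each mouse member stands above its neighbours (Penk 3.80 to 4.32), while next to human GALR2 the gene FOXJ1 changed more (2.53 to 4.70), and next to human APOD (0.63 to 0.97) so did MUC20 (1.88 to 2.12).

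The human table reports on the tumour cells of the same xenografts. PENK held at most 4 reads and TMEM132C 0 reads in any of 22 human libraries, whereas mouse Penk reached 989 reads. APOD and GALR2 passed the filter, and both rose in all 4 contrasts. Of all 16029 human genes tested, 27.5 and 25.9% were called higher at 2 and 6 weeks in hHGF-NSG and 28.1 and 28.8% in NSG, and 26.6 and 25.5% were called lower in hHGF-NSG and 28 and 28.8% in NSG.

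GALR2 (ENSG00000182687, hg38 chromosome 17, 76074794 to 76077541, plus strand) stood at 2.65, 0.480 and 0.838 FPKM in naive hHGF-NSG tumours, at 12.4, 11.1, 9.5 and 13.3 at 2 weeks and at 4.76, 3.57 and 3.67 at 6 weeks. In NSG it stood at 2.20, 0.650, 1.97 and 2.06 FPKM in naive tumours, at 8.99, 13.4, 9.28 and 11.4 at 2 weeks and at 2.51, 3.17, 3.93 and 2.22 at 6 weeks. All 2-week libraries were above all others, and within each host the 6-week libraries lay between the naive and the 2-week ones. GALR2 rose at 2 weeks by 2.54 in hHGF-NSG (SE 0.26, limma adjusted p = 4.67e-08) and 2.15 in NSG (SE 0.24, adjusted p = 1.63e-07). At 6 weeks it was higher than naive by 1.21 in hHGF-NSG (adjusted p = 0.000948) and by 0.57 in NSG (adjusted p = 0.0461). The last call ended in 11 of the fits without 1 library, at adjusted p = 0.0507 to 0.199. The lowest of these changes, 0.34, was without NSG naive replicate 2. From 2 to 6 weeks GALR2 fell by 1.33 in hHGF-NSG (SE 0.26, limma adjusted p = 0.00142) and by 1.58 in NSG (SE 0.24, adjusted p = 7.44e-05), where 6.45 and 11.9% of all human genes were called lower. The differences of mouse Galr2 were -0.01 and -0.06; the 2 species' changes were not tested against each other.

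APOD (ENSG00000189058, chromosome 3, 195568702 to 195584205, minus strand) had means of 2.48 ± 0.20, 5.81 ± 0.74 and 5.22 ± 0.80 FPKM in hHGF-NSG at naive, 2 weeks and 6 weeks, and 2.23 ± 0.44, 4.53 ± 0.51 and 4.06 ± 1.14 FPKM in NSG (SD, n = 3, 4, 3 and 4, 4, 4). It rose by 0.97 and 0.83 in hHGF-NSG (SE 0.15 and 0.16, limma adjusted p = 1.3e-05 and 0.000171) and by 0.78 and 0.63 in NSG (SE 0.14 and 0.14, adjusted p = 6.09e-05 and 0.00054). As a fold of means this was 2.35 and 2.11 times in hHGF-NSG and 2.03 and 1.82 times in NSG, against 8.37 to 15 times for mouse Apod. When NSG naive replicate 1 was dropped, changes at 2 and 6 weeks in NSG were 0.74 and 0.59 for APOD (limma adjusted p = 0.000344 and 0.00239) and 2.24 and 0.66 for GALR2 (adjusted p = 4.71e-07 and 0.0348). The sources used here do not say how mouse and human reads were separated. Of the 9 human neighbours of APOD and GALR2, all tested, 5 were higher in each contrast but 2 weeks in NSG, where 6 were, and 2 were lower, against 25.9 to 28.8% of all genes called higher. Next to APOD, the mucin gene MUC20 rose by 1.88 and 2.12 in hHGF-NSG and by 1.98 and 2.11 in NSG (limma adjusted p = 6.9e-08, 3.85e-08, 9.73e-09 and 3.73e-09), against 0.63 to 0.97 for APOD.

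**Figure D5:**
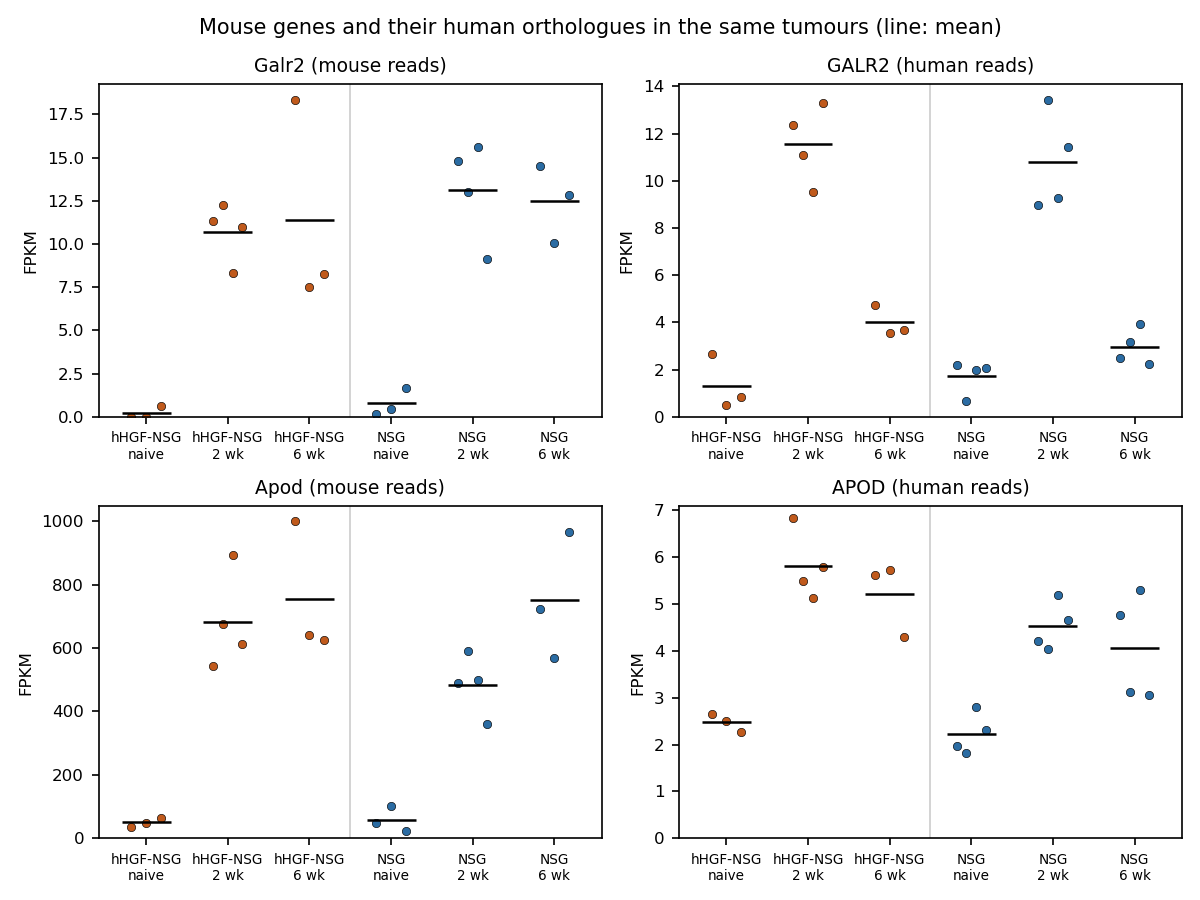
FPKM of mouse Galr2 and Apod (left) and human GALR2 and APOD (right) in each library, by host and time. Points are libraries and lines are means; human GALR2 is highest at 2 weeks (8.99 to 13.4 FPKM) and lower at 6 weeks (2.22 to 4.76), while mouse Galr2 is at 7.53 to 18.3 FPKM at 6 weeks.

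GALR2 lies within the human gene ZACN, an ion channel gene on the same strand (chromosome 17, 76071961 to 76083666), so reads of the 2 cannot be fully told apart. ZACN rose as well, to 1.97 ± 0.53 FPKM at 2 weeks and 0.970 ± 0.166 at 6 weeks, against 0.0887 ± 0.0532 in naive hHGF-NSG tumours, and to 2.63 ± 0.70 and 0.822 ± 0.153 FPKM, against 0.115 ± 0.0655 in naive NSG tumours (log2 changes 1.43, 0.85, 1.68 and 0.71, all called by limma). FOXJ1, the master factor of motile cilia, lies 58.8 kb from GALR2 (chromosome 17, 76136333 to 76141299, minus strand). It stood at 484.7 ± 46.7 FPKM at 2 weeks and 163.2 ± 20.2 at 6 weeks, against 17.8 ± 3.58 in naive hHGF-NSG tumours, and at 436.5 ± 83 and 117 ± 28.2 FPKM, against 19.3 ± 3.57 in naive NSG tumours. FOXJ1 and GALR2 thus were both highest at 2 weeks. EXOC7, which lies between them at 3.48 kb from GALR2, was not called. SRP68 on the other side was lower by 0.30 to 0.38, a call that the voom fit did not give. With voom, which scaled libraries by recovered reads and not as the FPKM were, its changes were -0.07 to -0.20. In the mouse table Foxj1 did not exceed 0.403 FPKM and was not tested, while Galr2 reached 18.3 FPKM.

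The values of human GALR2 rose, though reads of ZACN may be among them. The promoter of GALR2 is shown, 300 bases around the RefSeq gene start (GRCh38.p14, chr17:76074531-76074830, plus strand), with the match to a GC box (GGGCGG, read on the minus strand) in capitals.
GALR2: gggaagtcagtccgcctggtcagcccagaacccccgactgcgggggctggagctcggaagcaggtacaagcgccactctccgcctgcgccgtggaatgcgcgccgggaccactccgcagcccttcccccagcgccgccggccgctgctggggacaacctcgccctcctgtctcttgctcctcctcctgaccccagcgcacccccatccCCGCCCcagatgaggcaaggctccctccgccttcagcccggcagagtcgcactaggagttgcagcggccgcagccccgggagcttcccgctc
The window is 71.7% G or C, against a median of 58.67% over 35116 promoters of the same length. A GC box on either strand is found in 45% of these promoters. The TATA box (TATAAA), the E-box (CACGTG), the AP-1 site (TGANTCA), the CRE core (TGACG) and the FOX core (TGTTTAC) had no match on either strand; their shares over all promoters are 11.5, 7.26, 7.71, 24.6 and 3.42%. These matches describe letters in 1 window and not a site. The window of TMEM132C, a gene with 0 reads, is 65.7% G or C and matched none of the 6 motifs.

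The opioid and TMEM132 partners in the tumour cells were also examined. Of 17 opioid genes 6 were tested in the human table, and 4 were higher and 1 lower at both times in hHGF-NSG, with 4 higher and 2 lower at 2 weeks and 2 and 2 at 6 weeks in NSG. Among all human genes 25.9 to 28.8% were called higher and 25.5 to 28.8% lower, so calls were common. PCSK1N rose by 1.08 and 1.07 in hHGF-NSG and by 1.24 at 2 weeks in NSG (limma adjusted p = 0.00289, 0.00563 and 0.000432). Its change of 0.29 at 6 weeks in NSG was not called. OPRL1, the nociceptin receptor, rose by 0.85 and 0.84 in hHGF-NSG and by 0.86 and 0.97 in NSG (limma adjusted p = 0.000372, 0.000828, 0.000134 and 3.44e-05), at 1.74 to 1.98 FPKM in treated groups against 0.502 to 0.586 FPKM in naive groups. CTSL, the lysosomal protease cathepsin L, rose by 1.31 and 1.26 in hHGF-NSG and by 1.38 and 1.33 in NSG, and DPP3, a peptidase that degrades enkephalins, fell by 0.90 and 1.40 in hHGF-NSG and by 0.90 and 1.41 in NSG. TMEM132A, the most abundant gene of its family there, fell by 0.76 and 0.95 in hHGF-NSG and by 0.82 and 1.30 in NSG (limma adjusted p = 0.00232, 0.000689, 0.00062 and 3.3e-06).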

How the data were processed

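Tumours were profiled by bulk RNA-seq of total RNA, and the authors deposited FPKM values for 54532 mouse genes (mm10) in 20 libraries and 58735 human genes (hg38) in 22. In NSG, 1 naive library (replicate 2) and 1 library at 6 weeks (replicate 4) were analysed in the human table only. Per the submitters' processing notes the builds were GRCh38, hg38 and mm10 and DESeq2 was used. The sources used here name no aligner, counter or way of separating the species. Groups follow the sample labels.

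Whole reads were recovered from the deposited FPKM and gene lengths, with the value of 1 read inferred from the values themselves (100% whole within 0.05). This gave the depths printed, and intervals and floors cover counting error only. The library size behind the human FPKM was 0.876 to 0.937 times the recovered reads in naive libraries. It was 1.03 to 1.11 times at 2 weeks and 0.986 to 1.09 times at 6 weeks. In mouse libraries it was 0.947 to 1.11 times. The voom fit used the recovered reads as library size. The main test was limma 3.58.1 (R 4.3.3) with a mean-variance trend on log2(FPKM + 1), 1 mean per group, for genes with at least 1 FPKM in at least 3 libraries (14287 mouse, 16029 human), two-sided, with Benjamini-Hochberg adjustment over all genes tested and a threshold of 0.05. The same code was tested on simulated data. Python 3.11.15 with pandas 2.3.3, numpy 2.4.6 and matplotlib 3.10.9 made the tables and plots.

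The members, gene lists and tests were chosen with earlier results of these data known. Named genes are the members, their human orthologues, the 5 genes of nearest profile, the 2 nearest protein-coding neighbours on each side, up to 4 called genes of a list with the largest change, and genes singled out for their value. There were 7 alternatives: no filter, a pseudocount of 0.1, median ratio rescaling, the replicate number as a block, leaving out each library, limma voom on recovered reads and thinning to the smallest library. Promoter sequence came from RefSeq (GRCh38.p14), which matched 2 of 4 human genes; mouse sequence is not used here.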

Additional observations from a re-analysis of the deposited data

Results flagged for a closer look

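A screen for a library far from the others covered 20 sets, each the values of 1 gene in 1 group of 4 or more libraries. Groups of 3 were not screened. Chance gives about 1 in 20, though the sets share libraries. In all 2 were found, both in human genes of naive NSG tumours. GALR2 stood at 0.65 FPKM in NSG naive replicate 2, far below the other 3 libraries at 1.97 to 2.20 FPKM. PENK stood at 0.0423 FPKM (2 reads) in the library labelled NSG naive replicate 1, with 0 in the other 3, which is within the 3 reads that a count of 0 allows.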

How the results depend on the processing

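Naive mouse libraries were the shallowest, which limits Galr2 and Tmem132c most, at 0 to 7 reads each. Of the counts of the 4 genes called between hosts or times, 1 changed: voom called 1 gene, Tmem132c, at 6 against 2 weeks in hHGF-NSG. Counts of list genes called were 12, 23, 13 and 20 (hHGF-NSG 2 and 6 weeks, NSG 2 and 6 weeks). Thinning gave 6 for the first, and leaving out 1 library gave 5 to 15, 17 to 23, 8 to 15 and 15 to 22. The 5 came without hHGF-NSG naive replicate 1, the 8 without NSG 2 weeks replicate 1; without hHGF-NSG naive replicate 2 the first count was 6, and without hHGF-NSG 2 weeks replicate 1 or 2 it was 7. Without NSG naive replicate 1 the NSG counts were 12 and 18. Human orthologues called at 6 weeks in NSG numbered 2, and 1 with a pseudocount of 0.1 or no filter (1 to 2 without 1 library).

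Some differences of the 4 genes near 0, none called, changed sign. Apod between naive hosts was -0.18 under the replicate block and -0.00762 thinned, and between hosts at 6 weeks -0.00118 rescaled and -0.0193 with voom. At 6 against 2 weeks in hHGF-NSG the block gave -0.0459 for Apod and 0.0237 for Galr2, and thinning gave 0.211 for Galr2 between hosts at 6 weeks. Without 1 library, Penk ranged over -0.914 to 0.187, -0.115 to 0.242 and -0.395 to 0.222 between hosts (naive, 2 and 6 weeks) and -0.415 to 0.0665 at 6 against 2 weeks in NSG. Apod ranged over -0.532 to 0.567 and -0.215 to 0.201 between hosts (naive, 6 weeks) and -0.0798 to 0.278 at 6 against 2 weeks in hHGF-NSG. Galr2 ranged over -0.586 to 0.00361 between hosts at 6 weeks, and -0.385 to 0.204 and -0.209 to 0.0798 at 6 against 2 weeks in hHGF-NSG and NSG. The cause was not tested.

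Same-numbered mouse libraries did not deviate together (43 pairs, correlations -0.13 to 0.11), so the numbers do not pair them; with the replicate block Tmem132c at 6 against 2 weeks in hHGF-NSG was -0.705 (limma adjusted p = 0.257), and no call on the 4 genes changed. Of 314 called results on list genes, neighbours and genes of like profile, 314 kept their direction in every alternative and 236 their call.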
